A study of Mus musculus with 7 samples.

Results

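The chaperone genes of the egg were described in pools of ovulated mouse oocytes with and without Nlrp2. They were taken by symbol: every gene that starts with Hspa, Hspb, Hsp90, Hsph1, Hspd1, Hspe1, Dnaja, Dnajb, Dnajc or Pdia, and Calr and Canx. That gave 77 of the 18951 genes in the table. The WT group held 3 pools from wild-type C57BL/6 females and the null group held 4 pools from Nlrp2-null C57BL/6 females, all aged 4 weeks and with no treatment named in the labels. Each pool combined about 150 oocytes of 3 to 4 mice of the same genotype, freed of cumulus cells with hyaluronidase, so the pools count as separate collections of animals. How the null allele was made, and what it lacks, is not stated in the labels. The family was selected on measured values of the same pools, since Hspa5 and Hsp90ab1 had been seen to be higher in null pools. The comparison of null with WT pools is therefore given as a description for all members, and no p value of a member is printed. Members past a p threshold are counted beside the share of all genes, and those called by DESeq2 are named, but nothing is read from this.

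Molecular chaperones bind unfolded proteins and help them fold, assemble or be degraded. HSP70 proteins bind and release clients in an ATP cycle, J-domain proteins (the Dnaj genes) bring clients to them and start ATP hydrolysis, and HSP110 proteins such as Hsph1 and Hspa4 exchange the nucleotide. HSP90 acts later, on near-native clients such as kinases. The endoplasmic reticulum (ER) has its own set, with Hspa5 (BiP), Hsp90b1 (GRP94), the lectins Calr and Canx that hold glycoproteins, and the disulfide isomerases of the Pdia family, and the mitochondrial matrix has another, with Hspa9, Hspd1 and Hspe1. An ovulated egg is transcriptionally silent, so its chaperone messages were stored during growth.

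By textbook location, 21 members are ER proteins, 45 are cytosolic or nuclear and 8 are mitochondrial, while Dnajc4, Dnajc22 and Dnajc28 were left in no list. By the start of the symbol, the family holds 13 Hspa, 3 Hsp90, 8 Hspb, 4 Dnaja, 11 Dnajb, 28 Dnajc and 5 Pdia genes beside Hsph1, Hspd1, Hspe1, Calr and Canx. The 8 counted as Hspb include Hspbap1 and Hspbp1, which were taken only because their symbols begin with the same letters. The values are normalized counts, that is, reads per gene divided by a factor per pool. Of the 77 members, 70 had a mean of at least 10 and entered the fit. The other 7 (Pdia2, Dnajb3, Dnajc22, Hspa12b, Hspb3, Hspb7 and Hspb8) did not.

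Between 71073973 and 96330083 reads stood behind each pool. Nlrp2 itself had 15527 to 20130 normalized counts in WT pools and 1.96 to 107 in null pools. All 20 oocyte markers looked at were above 0 in every pool. Of 38 measured cumulus and granulosa cell markers, 34 were above 0 in every pool and 4 (Amh, Amhr2, Areg and Ihh) were at 0 in at least 1. Of the 35 tested 28 had positive log2 fold changes, with a median of 0.34. The summed level of the 38 was 150671 to 178115 in WT and 158735 to 188153 in null pools. The largest part of that sum was Rgs2, at 79394 to 92257 in WT and 74450 to 76576 in null pools. The mean of 35 of these markers on the log2 scale was 9.72, 8.70 and 8.92 in WT pools 1 to 3 and 9.07, 9.36, 9.89 and 10.4 in null pools 1 to 4. Null pools exceeded WT pools by 0.57 on average (exact permutation test over 35 splits, two-sided p = 0.229, where 0.0286 is the smallest possible). Null 3 and null 4 thus had the highest marker means, and together with WT 3 they carry library numbers of a higher series than the other 4 pools. Of 5 measured blood and immune markers Lyz2, Adgre1 and Tyrobp were at 0 in at least 1 pool. In such bulk pools, fewer cells of a type and less RNA per cell cannot be told apart.

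The heat shock and unfolded protein responses read short promoter motifs, which are shown here as a description of the ER and the cytosolic members. Whether the motifs were first defined on such genes was not checked, so the shares below are no test of a difference between the lists. The ER stress response element (ERSE) is the site of ATF6 with NF-Y. It was searched on both strands as CCAAT, then 9 bases of any kind, then CCACG. RefSeq promoters on GRCm38.p6, from 250 bases before to 50 after the start, were at hand for 64 of the 77 members. ERSE was found in 6 of these 64 (9.38%), against 37 of 27025 genes in all (0.137%). All 6 were ER members: Hspa5, Hsp90b1, Calr, Canx, Dnajc3 and Pdia6, out of 19 ER members with a promoter (31.6%), where 0 of 38 cytosolic and nuclear and 0 of 5 mitochondrial members held it. In the sites below, 5′ to 3′ on the gene's strand, capitals mark the fixed letters of the motif. In Calr and in the second Hsp90b1 site the motif reads on the opposite strand.
Hspa5: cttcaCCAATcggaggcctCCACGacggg
Hsp90b1, first site: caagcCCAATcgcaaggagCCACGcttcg
Hsp90b1, second site: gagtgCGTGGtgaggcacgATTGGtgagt
Calr: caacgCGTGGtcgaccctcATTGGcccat
Canx: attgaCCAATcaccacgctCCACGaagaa
Dnajc3: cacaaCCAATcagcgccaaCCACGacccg
Pdia6: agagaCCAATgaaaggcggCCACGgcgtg

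These sites lie at chr2:34772020-34772048 (Hspa5, plus strand), chr10:86705633-86705661 and chr10:86705528-86705556 (Hsp90b1, minus strand), chr8:84847070-84847098 (Calr, minus strand), chr11:50325795-50325823 (Canx, minus strand), chr14:118937822-118937850 (Dnajc3, plus strand) and chr12:17266486-17266514 (Pdia6, plus strand). Counted from the RefSeq start, the Hspa5 motif spans bases -65 to -47 and the Hsp90b1 motifs span -212 to -194 and -107 to -89. Gene spans given below are from GENCODE, whose start can lie before the RefSeq one. The Hspa5 site thus lies inside the GENCODE span of that gene, which begins at 34771970. Hsp90b1 was the only member with more than 1 such site in its window. The second ER element (ERSE-II, searched on both strands as ATTGG, 1 base of any kind and CCACG) was found in 1 member, Dnajb11, from base 7 to base 17 after the start, and in 12 of all 27025 genes (0.0444%). It shares CCACG with ERSE, and its ATTGG is CCAAT read on the other strand, but no member's window held both elements.

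The heat shock element (HSE), read by heat shock factors, was searched on both strands as GAA, TTC and GAA, or TTC, GAA and TTC, with 2 bases of any kind between them. It was found in 4 of 64 members (6.25%) and in 179 of all 27025 genes (0.662%). None of the 4 was an ER member: they were the cytosolic Hsph1 and Dnajb6 and the mitochondrial pair Hspd1 and Hspe1. Hspd1 and Hspe1 start head to head, so the sites of the pair are the same bases, and each gene's window holds 2 overlapping matches. The elements of Dnajb6 (chr5:29735844-29735872, plus strand) and Hsph1 (chr5:149636280-149636308, minus strand, after the start) and the match nearest to Hspe1 (chr1:55088056-55088084, plus strand) read as follows.
Dnajb6: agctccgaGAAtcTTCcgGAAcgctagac
Hsph1: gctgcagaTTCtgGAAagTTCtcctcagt
Hspe1: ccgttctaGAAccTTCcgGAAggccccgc

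The Dnajb6 site and the sites of the pair likewise lie inside GENCODE spans, of Dnajb6 (from 29735688, plus strand) and of Hspd1 (to 55088243, minus strand). A match describes letters in the window and does not show that a factor is bound.

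Set per kilobase of exon, HSP90 genes and a single J-protein gene stood at the top of the family in WT eggs. Hsp90aa1, the cytosolic HSP90 that other cells induce on stress, had 63506 ± 834 normalized counts per kb (SD, n = 3). Dnajc21, a J protein of ribosome maturation, followed with 21682 ± 839 per kb, and the ER form Hsp90b1 with 17283 ± 1236 per kb. The cytosolic Hsp90ab1, constitutive in most cells, stood at 9150 ± 343 per kb. These 4 levels were apart by more than their SDs. The SDs cover the spread between pools only. An order of genes per kb also depends on the exon length used, with all isoforms merged, and is given as a description. The next 4, Dnaja2 (7999 ± 387 per kb), Canx (7702 ± 222 per kb), Dnajc3 (7354 ± 575 per kb) and Pdia3 (7055 ± 663 per kb), did not differ from each other as neighbours in that order beyond their spread, and Dnaja2 lay below Hsp90ab1 by more than both SDs. The constitutive HSP70 of the cytosol, Hspa8 (6286 ± 361 per kb), had a level above that of its ER counterpart Hspa5 (4295 ± 255 per kb) and of the mitochondrial Hspa9 (3528 ± 246 per kb).

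The stress-inducible HSP70 genes were near the bottom. Hspa1b had 88.5, 116 and 56.0 normalized counts in WT pools 1 to 3 against 32.5, 79.9, 60.8 and 72.2 in null pools 1 to 4, and Hspa1a had 0, 19.0 and 18.1 against 3.25, 12.3, 9.81 and 11.5. The 0 of WT 1 allows up to 3.16 normalized counts (3 reads, counting error only). Both genes were low in every pool and their groups overlapped. Their sequences are near-identical, and how reads that match both were counted was not given. Such reads can be split between the genes or dropped, so both levels may be too low. The small heat shock gene Hspb1 was also low, at 77.4 to 132 in WT and 44.1 to 135 in null pools.

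**Figure D1:**
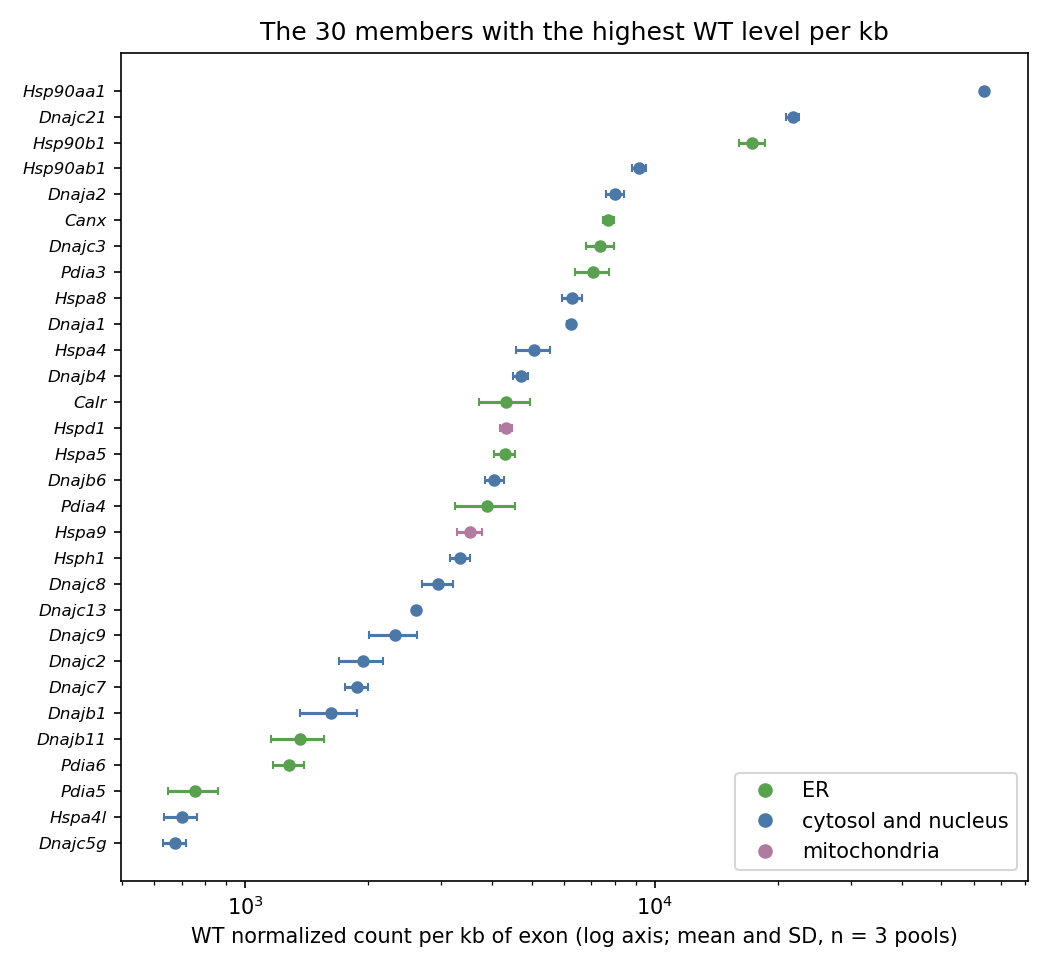
WT level of the 30 highest members, as normalized counts per kb of exon on a log axis, with points for the mean and bars for the SD of 3 pools, coloured by compartment. Hsp90aa1 lies at 63506 per kb, apart from Dnajc21 at 21682, and Hspa5 lies at 4295.

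limma called no member between null and WT pools, and DESeq2 called 3. At a Benjamini-Hochberg adjusted p under 0.05 over 15071 genes, limma called 0 of 70 members, where 0.0664% of all genes were called. At an unadjusted p under 0.05 it counted 9 members (10.2% of all genes), 4 higher (5.28% of all genes) and 5 lower (4.93% of all genes) in null pools. On recovered reads edgeR called 0 of 70 members (0.0464% of all genes, and 0.0398% as higher) and DESeq2 called 3 (1.25% of all genes). The 3 were Hspa5 and Hsp90ab1 with higher values (0.75% of all genes were called higher) and Dnajc21 with lower values. WT and null pools did not overlap in 10 members (9.91% of all genes), with the null pools higher in 4 (4.74% of all genes) and lower in 6 (5.16% of all genes). As the family was proposed from this comparison, nothing is read from these counts.

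**Figure D2:**
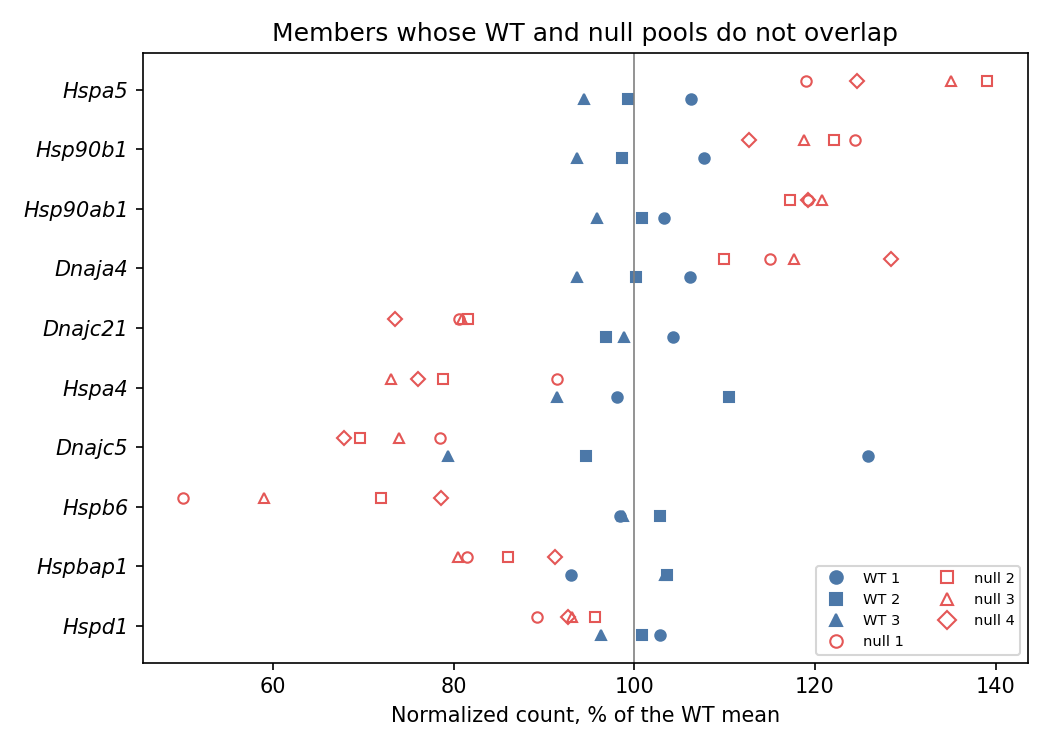
Normalized counts of the 10 members whose groups do not overlap, each as a percentage of the WT mean of that gene, with a filled symbol per WT pool and an open symbol per null pool. Hspa5, Hsp90b1, Hsp90ab1 and Dnaja4 have all null pools to the right of the WT pools and the other 6 have them to the left.

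Of the ER members, Hspa5 and Hsp90b1 had all null pools above all WT pools. Hspa5, the ER HSP70 that holds new chains and keeps the stress sensors off (chromosome 2, 34771970 to 34777547, plus strand, GRCm38), had 19300, 18042 and 17152 normalized counts in WT pools against 21607, 25264, 24531 and 22652 in null pools 1 to 4. The lowest null pool was above the highest WT pool, and the log2 fold change, null minus WT on log2(normalized count + 1), was 0.37 (SE 0.0873), a fold of 1.29. Hsp90b1, the ER HSP90 (chromosome 10, 86690209 to 86705509, minus strand), had 75087, 68710 and 65263 in WT pools against 86707, 85107, 82743 and 78502 in null pools. Again every null pool was above every WT pool, with a log2 fold change of 0.26 (SE 0.0757). An antisense pseudogene, 1810014B01Rik, overlaps 415 exon bases of Hsp90b1, and it held a mean of 8.13 normalized counts in WT and 22.6 in null pools.

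In the genes of the calnexin cycle the groups overlapped. Canx, the membrane lectin, had 34947, 36646 and 36837 in WT pools against 37074, 40632, 35450 and 32720 in null pools, and its soluble relative Calr had 10618, 14136 and 12765 and then 13299, 13477, 11856 and 14189. In both genes null and WT pools were interleaved, with log2 fold changes of 0.01 (SE 0.0846) and 0.09 (SE 0.107). Pdia3, the isomerase that works with these lectins, had a log2 fold change of -0.02 (SE 0.0966). Pdia4 and Pdia6, isomerases that reshuffle disulfide bonds, ranged over all pools from 8246 to 12007 and from 4221 to 6192 normalized counts, and both overlapped between groups.

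ER J proteins were mixed. Dnajc3, a J partner of Hspa5 that also restrains the PERK kinase, had 35740, 41196 and 36488 in WT pools against 42411, 43183, 38910 and 28731 in null pools, so its lowest and its highest values were both in null pools. Dnajb11, which brings unfolded chains to Hspa5, had a log2 fold change of 0.15 (SE 0.136). Dnajc10, the ER reductase with a J domain, had one of -0.30 (SE 0.166).

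Dnajb9, a J protein that binds misfolded ER clients and the sensor IRE1, had 770, 737 and 464 normalized counts in WT pools against 606, 942, 960 and 1434 in null pools. Null 1 lay within the WT values and null 4, the pool with the highest cumulus marker mean, had the highest. Its log2 fold change was 0.55 (SE 0.278), and 0.20 after adding the mean of the cumulus markers to the model. It was 0.00 within the lower library series and 1.34 within the higher one, where 1 WT pool stands against null 3 and null 4. Null 3 and null 4 also had the highest cumulus marker means. The part of cumulus cells or of the series in these values was not tested. The ER HSP70 relative Hspa13 was low, at 340 to 510 in WT and 322 to 585 in null pools.

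Over the ER list 13 of 20 tested members had positive log2 fold changes and 7 negative, with a median of 0.02, where the median of all 15071 genes was 0.01. In 2 of the 20, Hspa5 and Hsp90b1, the groups did not overlap, a share near the 9.91% of all genes, and Hspa5 was among the values that proposed the family. The ER members together took 0.312%, 0.2995% and 0.284% of all normalized counts in WT pools against 0.327%, 0.341%, 0.320% and 0.312% in null pools 1 to 4, so null 4 stood just below WT 1. The ER median was 0.11 without null 3 and null 4, 0.14 after adding the mean of the cumulus markers, -0.04 with pools scaled to equal medians and -0.03 without WT 1, and it was also negative without null 1 (-0.01) or null 2 (-0.02).

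Of the 6 genes with an ERSE, whose sites are printed above, only Hspa5 and Hsp90b1 had groups that did not overlap. The log2 fold changes of the 6 ran from 0.00 for Dnajc3 to 0.37 for Hspa5, with Pdia6 at 0.04 (SE 0.14). The 4 genes with an HSE ran from -0.11 for Hspd1 to 0.12 for Hspe1.

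**Figure D3:**
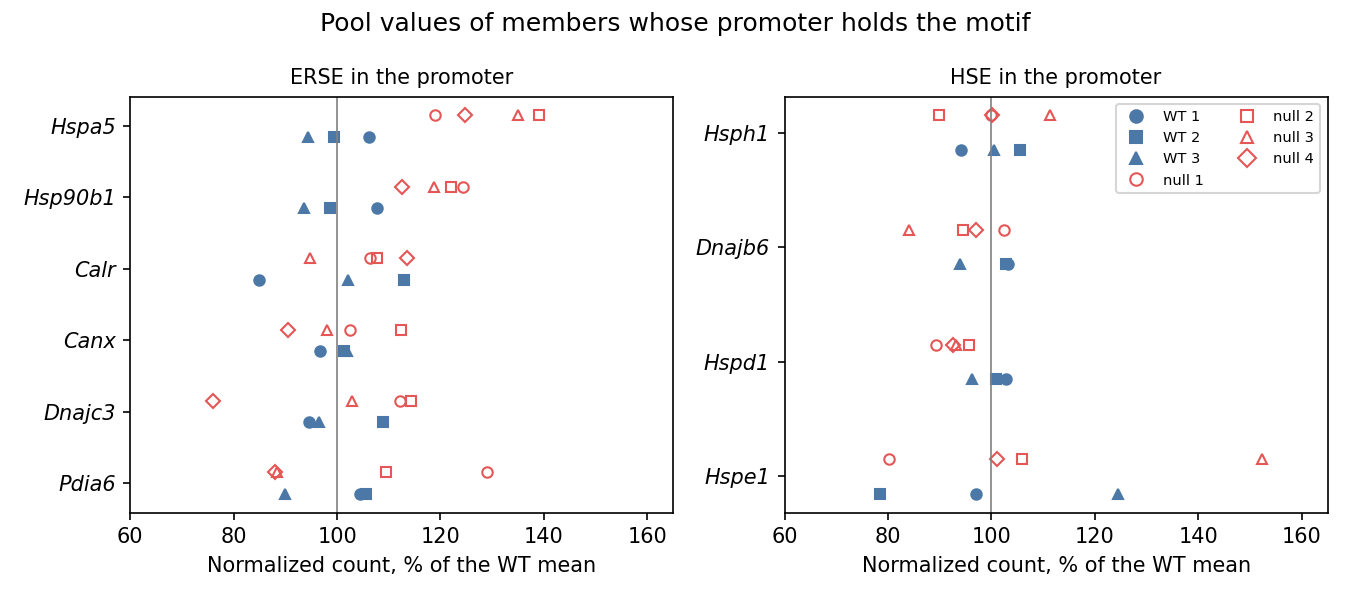
Normalized counts as a percentage of the WT mean for the 6 members with an ERSE (left) and the 4 with an HSE (right), with a filled symbol per WT pool and an open symbol per null pool. Only Hspa5 and Hsp90b1 on the left have all null pools above the WT pools, and on the right the groups overlap except for Hspd1, whose null pools lie just below.

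The cytosolic HSP90 genes differed from each other in pattern. Hsp90ab1 (chromosome 17, 45567775 to 45573271, minus strand) had 28329, 27679 and 26311 normalized counts in WT pools against 32721, 32161, 33156 and 32706 in null pools. The null pools lay close to each other and all above WT, with a log2 fold change of 0.25 (SE 0.075), a fold of 1.19. Hsp90aa1 had 248889, 253233 and 246807 in WT pools against 267733, 245063, 194875 and 219962 in null pools. Null 1 was the highest of all pools and null 3 the lowest, so the groups overlapped, with a log2 fold change of -0.12 (SE 0.0919). Without null 3 and null 4 that value was 0.04. Hsp90aa1 and Hspa8 have processed copies elsewhere in the genome, and reads shared with them were not told apart here.

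Ratios within a pool do not depend on the scaling of pools. Hsp90ab1 made up 10.2%, 9.85% and 9.63% of the normalized counts of both cytosolic HSP90 genes in WT pools against 10.9%, 11.6%, 14.5% and 12.9% in null pools 1 to 4. Hsp90b1 came to 0.302, 0.271 and 0.264 times Hsp90aa1 in WT pools and to 0.324, 0.347, 0.425 and 0.357 times in null pools. Hspa5 came to 0.682, 0.656 and 0.678 times Hspa8 in WT pools and to 0.698, 0.846, 0.932 and 0.853 times in null pools. In all 3 ratios every null pool was above every WT pool, null 3 was the highest, and null 1 was the null pool nearest to WT. These are not separate observations. Hspa5 and Hsp90ab1 were the values that proposed the family, and both HSP90 ratios are set against Hsp90aa1, which was lowest in null 3 and null 4. Hsp90b1 over Hsp90ab1, the ER form against the cytosolic form that was also higher, overlapped, at 2.54 ± 0.0977 in WT (SD, n = 3) and 2.55 ± 0.122 in null pools (SD, n = 4).

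**Figure D4:**
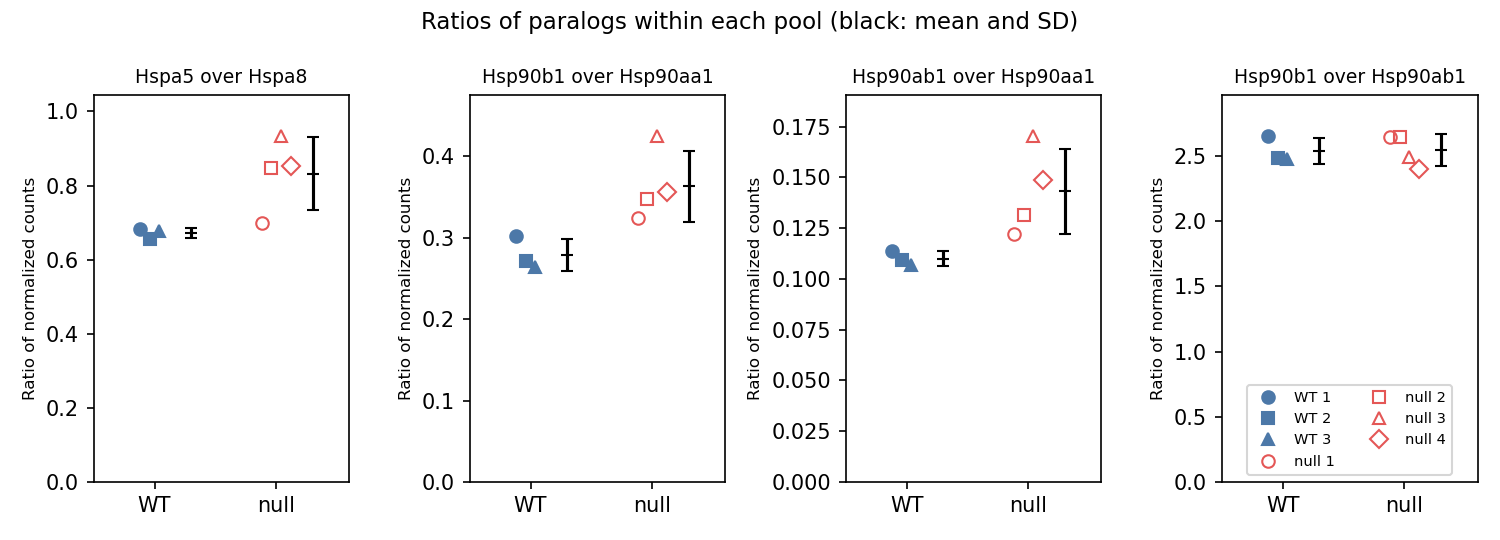
Ratio of normalized counts of ER and cytosolic paralogs in each pool, with points for the 3 WT and 4 null pools and a black mean with SD. The null pools lie above the WT pools for Hspa5 over Hspa8, Hsp90b1 over Hsp90aa1 and Hsp90ab1 over Hsp90aa1, and overlap for Hsp90b1 over Hsp90ab1.

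Among cytosolic HSP70 genes the groups overlapped, and among their exchange factors Hspa4 stood lower in null pools. Hspa8 had 28306, 27493 and 25304 normalized counts in WT pools against 30978, 29857, 26309 and 26569 in null pools. Null 3 and null 4 lay within the WT values and the log2 fold change was 0.07 (SE 0.0869). Hspa4, an HSP110 exchange factor (chromosome 11, 53259814 to 53300457, minus strand), had 27447, 30920 and 25594 in WT pools against 25587, 22068, 20437 and 21289 in null pools. All null pools were below all WT pools, null 1 and WT 3 by only a few counts, and the log2 fold change was -0.33 (SE 0.0962). Its relative Hspa4l had one of -0.26 (SE 0.115) where null 2 exceeded WT 1, and Hsph1, the third HSP110 gene, had 22917 to 25692 in WT and 21893 to 27125 in null pools. Hspa2, an HSP70 best known from sperm cells, was low, at 170, 323 and 252 in WT pools against 450, 308, 348 and 548 in null pools, where WT 2 exceeded null 2. Hspa14, the ribosome-bound HSP70, had 1790, 2654 and 2926 in WT and 2900, 2966, 2243 and 2259 in null pools.

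Dnajc21, an abundant cytosolic member, also had lower values in null pools. Its protein takes part in the maturation of the large ribosomal subunit, and the gene lies on chromosome 15 (10446756 to 10470516, minus strand). It had 108030, 100267 and 102422 normalized counts in WT pools against 83450, 84475, 83772 and 76072 in null pools. Every null pool was below every WT pool, with a log2 fold change of -0.34 (SE 0.0722), a fold of 0.791. The value was -0.31 within the lower and -0.36 within the higher library series, and -0.32 after adding the mean of the cumulus markers to the model. As the groups did not overlap, the sign within each series was fixed, and nothing is read from it. The same gene was, as given above, the second highest of the family per kb.

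The other abundant J proteins of the cytosol overlapped between groups. Dnaja1 and Dnaja2, the main J partners of Hspa8, had log2 fold changes of -0.09 (SE 0.0802) and -0.10 (SE 0.0839), Dnajb6, which holds aggregation-prone proteins, -0.08 (SE 0.0881), Dnajb1, a heat-inducible J protein, 0.08 (SE 0.134) and Dnajc7, which links HSP70 to HSP90, -0.09 (SE 0.105). Each of these 5 had null pools on both sides of at least 1 WT pool.

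Dnajc5, Hspb6, Hspbap1 and Dnaja4 are described because their groups did not overlap, that is, after their values were seen. Dnajc5, the J protein of secretory vesicles, had 4190, 3152 and 2643 normalized counts in WT and 2611, 2315, 2462 and 2258 in null pools. WT 1 stood far above the other WT pools, and the log2 fold change of -0.44 (SE 0.154) was -0.56 within the lower library series, which holds WT 1, and -0.16 within the higher one. Hspb6, a small heat shock gene, had 731, 764 and 734 in WT and 372, 535, 439 and 584 in null pools, a fold of 0.640. Its exons overlap Proser3 on the opposite strand by 122 bases, and Proser3 stood at 677 ± 64.4 in WT (SD, n = 3) and 686 ± 249 in null pools (SD, n = 4). Hspbap1, which binds a small heat shock protein, had 1664 to 1854 in WT and 1441 to 1632 in null pools. The remaining higher member was Dnaja4, a J protein of the DNAJA type, with 2020 to 2288 in WT and 2371 to 2770 in null pools. The opposite strand gene Wdr61 covers 1581 of the 3589 exon bases of Dnaja4, so its level is uncertain, and Wdr61 stood at 296 ± 56.9 in WT (SD, n = 3) and 271 ± 132 in null pools (SD, n = 4).

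Of 40 tested cytosolic and nuclear members 16 had positive and 24 negative log2 fold changes, with a median of -0.09. Groups did not overlap for 2 higher members, Hsp90ab1 and Dnaja4 (4.74% of all genes), and for 5 lower ones, Dnajc21, Hspa4, Dnajc5, Hspb6 and Hspbap1 (5.16% of all genes). The ER median exceeded the cytosolic one by 0.11. Among the 23 cytosolic members with a mean of at least 1000 the median was -0.09 with 16 negative, and among the 17 below it was 0.03 with 8 negative, with a median SE of 0.0998 in the former and 0.614 in the latter. The list took 0.939%, 0.895% and 0.869% of all normalized counts in WT pools and 0.884%, 0.851%, 0.775% and 0.8288% in null pools. Null 3, with the lowest share, was also the pool with the least Hsp90aa1. Without null 3 and null 4 the cytosolic median was -0.02.

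**Figure D5:**
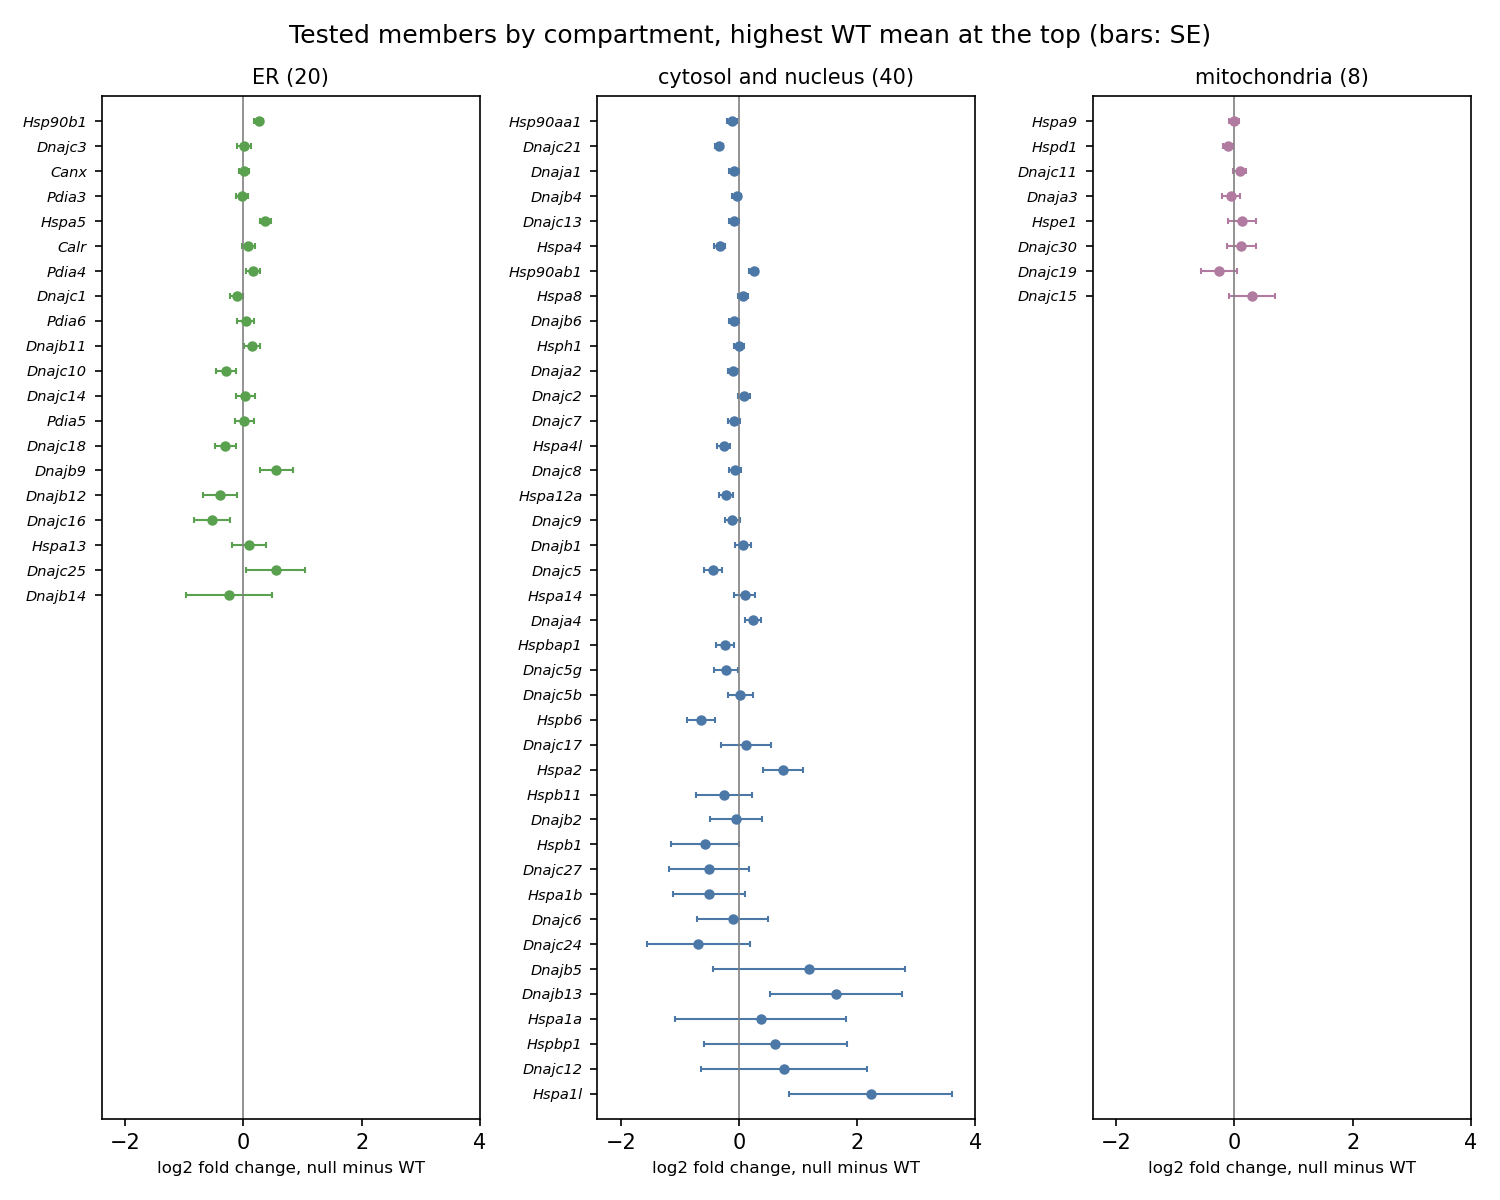
Log2 fold change, null minus WT, of the tested ER (20), cytosolic and nuclear (40) and mitochondrial (8) members, with points for the estimate and bars for the SE, and members ordered by WT mean. The members with a mean of at least 1000 lie within 0.44 of 0, and the wide bars at the bottom of the middle panel belong to genes with few reads such as Hspa1l.

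Mitochondrial chaperones overlapped between groups except for Hspd1. Hspa9, the matrix HSP70, had 13996, 15962 and 15665 normalized counts in WT pools against 14990, 14874, 16413 and 14324 in null pools, all overlapping, with a log2 fold change of -0.00 (SE 0.0897). Hspd1, the HSP60 chamber, had 11745, 11521 and 10998 in WT and 10185, 10923, 10634 and 10578 in null pools, where null 2 lay just under WT 3. Its log2 fold change of -0.11 (SE 0.0876) was the smallest among the 10 members without overlap. Hspe1, the lid of that chamber, had 718 to 1139 in WT and 733 to 1393 in null pools. Dnaja3, the matrix J protein, had 1749 to 2099 and 1589 to 2096, and Dnajc11, which associates with the contact site complex of the membranes, 6476 to 7186 and 6321 to 7971, both with overlap. Dnajc19, of the import motor, had a log2 fold change of -0.26 (SE 0.306). Of the 8 mitochondrial members 4 were positive and 4 negative, with a median of 0.04, and the list took 0.0480% to 0.0486% of the counts in WT and 0.0463% to 0.0489% in null pools.

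Spread between pools of the same genotype was also described. Over the 41 members with a mean of at least 1000 the coefficient of variation had a median of 7.15% in WT and 8.25% in null pools, and over the 6358 genes of that level it was 9.66% and 10.7%. Hsp90ab1 had the lowest value of these members in null pools, at 1.25%, and Dnajc13, a J protein of endosomes, in WT pools, at 0.918%. These extremes were named after their values were seen, as were Hspa14 (24.2% in WT) and Dnajc5g, a relative of Dnajc5 (23.3% in null pools) at the other end.

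The helpers of these chaperones were taken from lists chosen with earlier results of these data known. Of these helpers limma called 0 at an adjusted p under 0.05. Of 24 tested co-chaperones of HSP70 and HSP90 and heat shock factors, 4 had an unadjusted p under 0.05 (10.2% of all genes), 2 higher (5.28% of all genes) and 2 lower (4.93% of all genes). Hsf1, the main heat shock factor and a maternal effect gene, stood at 12630 ± 793 in WT (SD, n = 3) and 12696 ± 723 in null pools (SD, n = 4). Hsf2 was low, at 203 ± 14.9 and 374 ± 63.6 (log2 fold change 0.86, SE 0.316, limma adjusted p = 0.375), with all null pools above all WT pools. Stip1, which joins HSP70 to HSP90, stood at 23144 ± 448 and 19473 ± 1127 (log2 fold change -0.25, SE 0.0821, limma adjusted p = 0.312), with all null pools below all WT pools. Cdc37, which brings kinases to HSP90, stood at 713 ± 12.2 and 621 ± 51.3 (limma adjusted p = 0.795), also with all null pools below all WT pools.

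Of 34 tested genes of ER folding and the unfolded protein response, 22 had positive log2 fold changes (64.7%, against 50.7% of all genes), with a median of 0.10. An unadjusted p under 0.05 was found in 4, all higher (5.28% of all genes): P4hb, Atf4, Ern1 and Ero1l. Groups did not overlap in 2 higher genes, Hyou1 and Sel1l (4.74% of all genes), and 1 lower gene, Creld2 (5.16% of all genes). Creld2 stood at 6750 ± 232 in WT (SD, n = 3) and 5732 ± 717 in null pools (SD, n = 4; log2 fold change -0.24, SE 0.116, limma adjusted p = 0.498). Ern1, Ero1l, Sel1l and Creld2 are named after their values were seen. P4hb, the founding protein disulfide isomerase, which the symbol rule does not take, averaged 10604 ± 895 in WT pools against 13569 ± 1955 in null pools, with overlap (log2 fold change 0.35, SE 0.117, limma adjusted p = 0.327). Hyou1, the ER exchange factor of Hspa5, stood at 9417 ± 228 and 10077 ± 196 (limma adjusted p = 0.749), with all null pools above. Of the response's transcription factors, Atf4 stood at 5232 ± 1440 and 6909 ± 859 (limma adjusted p = 0.369), Xbp1 at 292 ± 121 and 375 ± 28.7 (limma adjusted p = 0.687) and Ddit3 at 314 ± 141 and 464 ± 32.9 (limma adjusted p = 0.506), each with overlap. Sdf2l1, a target of that response (926 ± 74.3 and 836 ± 68.3, limma adjusted p = 0.840) and Sil1, another exchange factor of Hspa5 (250 ± 19.5 and 274 ± 76.7, limma adjusted p = 0.950) also overlapped.

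Of 18 chaperonin, prefoldin and mitochondrial co-chaperone genes 8 had positive log2 fold changes, with a median of -0.01. An unadjusted p under 0.05 was found in 4, all lower (4.93% of all genes) and with all null pools below all WT pools (5.16% of all genes): Tcp1, Cct5, Pfdn4 and Hscb, the last 3 named after their values were seen. Tcp1, a subunit of the cytosolic chaperonin that folds actin and tubulin, stood at 6899 ± 667 in WT (SD, n = 3) and 5101 ± 692 in null pools (SD, n = 4), with a log2 fold change of -0.44 (SE 0.124, limma adjusted p = 0.230). Among the listed Cct genes, Cct4 (0.09), Cct6a (0.63), Cct7 (0.32) and Cct8 (0.06) had positive log2 fold changes. Cct2 (-0.16), Cct3 (-0.02) and Cct5 (-0.30) had negative ones. Pfdn4, a subunit of the prefoldin that feeds this chaperonin, stood at 27766 ± 2909 and 19966 ± 2604 (log2 fold change -0.48, SE 0.107, limma adjusted p = 0.119). The other prefoldin genes listed, Pfdn1, Pfdn2, Pfdn5, Pfdn6 and Vbp1, overlapped between groups.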

How the data were processed

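RNA of 7 oocyte pools was measured. The authors deposited a signal, the DESeq2 normalized count of each gene symbol in each pool, per the file headers and name. Dividing by the value of 1 read in a pool gave whole reads, within 0.01, for 100% of values. Aligners (STAR 2.5.0a, TopHat2 2.0.9), counters (featureCounts 1.5.0-p1, HTSeq), DESeq2 1.22.2, DESeq, HOMER and the builds mm10 and GRCm38 are named in the submitters' processing notes. For this table the tools used, the annotation and the strand setting were not given in the sources used here. Libraries were made from amplified cDNA (NuGEN), per the labels' protocols, so reads are not independent molecules.

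limma 3.58.1 (R 4.3.3) with a variance trend compared null with WT on log2(normalized count + 1) over 15071 genes with a mean of at least 10, and p was adjusted over all of them (Benjamini-Hochberg). edgeR 4.0.16 and DESeq2 1.42.0 on recovered reads, other pseudocounts (0.5, 10), filters (none, 100), equal medians, no trend, covariates, a replicate block and leaving out pools were alternatives. limma, edgeR and DESeq2 were tested on simulated data. Exon lengths and coordinates are from GENCODE (GRCm38), with exons of all isoforms merged, and promoters are from RefSeq. The members, lists and ratios were chosen with earlier results of these data known. Named genes were fixed by role, with the 3 smallest p values per compartment the 5 highest levels per kb by the mean over all pools, and 12 pathway genes. A second deposited table of transcripts was not used, since none of its transcripts carries a member's name.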

Additional observations from a re-analysis of the deposited data

Results flagged for a closer look

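Over 47 named genes, a single null pool stood apart from the other 3 in 2, where chance gives about 1 in 20. Dnajc21 was at 76072 normalized counts in null 4, below 83450 to 84475 in null pools 1 to 3, a gap of 0.878 of the range of the group. Xbp1 was at 418 in null 2, a gap of 0.866 of that range.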

How the results depend on the processing

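The 10 members without overlap kept the sign of their log2 fold changes in all 19 alternatives (Hspa5 0.31 to 0.42, Hsp90ab1 0.19 to 0.28, Hsp90b1 0.20 to 0.31, Dnajc21 -0.40 to -0.30). They were picked because their groups did not overlap, so leaving out pools or changing the pseudocount could not reverse the sign. Nothing is therefore read from the kept signs. Of 662 values of the 35 named members, 2 moved by more than the spread between pools, both with equal medians, and 51, from 15 members, changed sign. DESeq2 called 3 members and the other alternatives 0. limma's 10 calls over all genes were 188 in DESeq2, 6 with equal medians, 0 without a variance trend, 20 with the cumulus marker mean, 2 (without null 3) to 16 (without null 1) when a pool was left out, and 0 without null 3 and null 4, a fit added after seeing the data. The cause of these changes was not tested.

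The ER median of 0.02 was -0.036 with equal medians, 0.14 with the cumulus marker mean, 0.11 without null 3 and null 4, and -0.029 (without WT 1) to 0.093 (without null 3) when a pool was left out. The cytosolic median of -0.09 was -0.14, -0.021 and -0.021 in the same 3 fits, and -0.12 (without null 1) to -0.032 (without null 4) when a pool was left out. The mitochondrial median of 0.04 ranged from -0.046 (without null 3) to 0.067 (without WT 3). The ER minus cytosolic difference of 0.11 was 0.17 with the cumulus marker mean. Same-numbered pools of the groups did not deviate together (r = -0.163, 0.0192 and -0.0121), so the numbers do not pair them; with a replicate block, where null 4 has no partner, limma called 1 gene and the cytosolic median was -0.032. Depth limits the lowest members, with a median SE of 0.494 for the 29 under a mean of 1000 and 0.107 for the 41 above.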

Other observations

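Hspb8 and Pdia2, chosen after their values were seen, are 2 of the 7 members under the minimum mean of 10. Hspb8, a small heat shock gene, was at 0 in all WT pools and in null 1 and null 2, and had normalized counts of 7.85 in null 3 and 34.5 in null 4. Pdia2, an isomerase best known from the pancreas, was at 0, 3.80 and 2.47 in WT pools and reached 36.3 in null 3. Their highest values lay in null 4 and null 3, where the mean of the cumulus markers was highest, whose part in them was not tested. Of 8 tested oviduct epithelium markers 7 had positive log2 fold changes, with a summed level of 20743 to 30562 in WT and 29239 to 36532 in null pools. Nearly all of that sum was Cdh1, a cadherin that oocytes also express, at 20358 to 30071 in WT and 27978 to 36101 in null pools, so the sum describes 1 gene. The highest value of another marker was 849, for Epcam in null 4. Of these markers Foxj1, Pax8, Muc1 and Wt1 were at 0 in at least 1 pool.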
